A study of Mus musculus with 6 samples.

Results

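The enzymes described here are 10 genes of glycine, serine and D-amino acid metabolism: Phgdh, Psat1, Psph, Shmt1, Shmt2, Gldc, Gcsh, Dao, Ddo and Agxt2. They were chosen by symbol from a table of 46095 genes, all 10 were found in it, and all 10 were among the 14611 genes with enough counts to be tested. The study asked how loss of SETD2, a histone H3K36 methyltransferase, changes kidney tubule cells that already lack VHL, the factor that marks HIF proteins for breakdown. RNA was sequenced from PTECs, the primary renal tubular epithelial cells of mice aged 10 weeks, with 3 libraries of the VHL-KO label (replicates 1, 2 and 4) and 3 of the VHL-KO;SETD2-KO label (replicates 2, 3 and 4). Both groups carried Ksp-Cre, a Cre recombinase under the Cdh16 promoter that is active in tubular epithelium, together with VHL fl/fl, and the second group carried Setd2 fl/fl as well. There was no group with intact VHL, so every difference below is between libraries that all carry VHL-KO in their label. Cells outside the reach of the promoter keep both genes, and the counts are per gene, so reads of the deleted exons cannot be separated from the rest.

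In mammals serine is made from a glycolytic intermediate by Phgdh, Psat1 and Psph in turn, and serine hydroxymethyltransferase, cytosolic as Shmt1 and mitochondrial as Shmt2, passes a carbon unit from serine to folate and leaves glycine. Mitochondria break glycine down with the glycine cleavage system, whose decarboxylase is Gldc and whose lipoyl carrier protein is Gcsh. Peroxisomal Dao oxidizes neutral D-amino acids such as D-serine, Ddo oxidizes acidic ones such as D-aspartate, and mitochondrial Agxt2 moves amino groups from several amino acids to glyoxylate and in doing so forms glycine. The proximal tubule is known as the part of the nephron that takes filtered amino acids back and that has high D-amino acid oxidase activity.

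Start-site windows of 300 bases, 250 before and 50 after each RefSeq transcription start of GRCm38.p6, were found for all 10 genes, 14 windows in all. The palindrome CACGTG stood in a window of Dao and of Ddo, the pair of D-amino acid oxidases, and in none of the other 8 genes, and of all 27025 genes with a window 8.09% held it. It began 85 bases before 1 of the 3 Dao starts and 127 bases before the Ddo start. The windows of Dao at chr5:114004558-114004857 (+), of Ddo at chr10:40629761-40630060 (+) and of Shmt2, the gene with the lowest p-value below, at chr10:127522395-127522694 (-) are shown 5′ to 3′ on the gene's strand, with CACGTG in capitals.
Dao: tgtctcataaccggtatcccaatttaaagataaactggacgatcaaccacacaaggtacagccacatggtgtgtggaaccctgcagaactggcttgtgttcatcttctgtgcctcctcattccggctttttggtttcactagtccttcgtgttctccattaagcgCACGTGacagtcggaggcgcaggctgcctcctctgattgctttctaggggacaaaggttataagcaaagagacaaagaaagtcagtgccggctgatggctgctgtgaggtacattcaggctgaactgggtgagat
Ddo: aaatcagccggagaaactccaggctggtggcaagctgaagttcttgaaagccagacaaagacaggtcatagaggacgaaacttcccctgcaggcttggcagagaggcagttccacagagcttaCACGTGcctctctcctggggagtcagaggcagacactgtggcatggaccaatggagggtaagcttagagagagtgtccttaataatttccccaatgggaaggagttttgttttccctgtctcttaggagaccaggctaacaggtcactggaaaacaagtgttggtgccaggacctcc
Shmt2: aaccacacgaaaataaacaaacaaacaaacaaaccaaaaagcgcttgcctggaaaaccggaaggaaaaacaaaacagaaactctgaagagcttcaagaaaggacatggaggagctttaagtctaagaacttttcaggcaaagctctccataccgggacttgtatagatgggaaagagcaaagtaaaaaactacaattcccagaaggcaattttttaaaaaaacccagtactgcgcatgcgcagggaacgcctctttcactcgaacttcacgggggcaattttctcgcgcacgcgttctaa
The shorter letters ACGTG, searched on both strands and contained in CACGTG, were also found for Psat1, 4 bases after 1 of its starts, and for Psph, 153 bases before its start, which made 4 of the 10 genes beside 21.8% of all genes. The letters TGATGNAA were in 0 of the 14 windows and in 3.97% of all 32851 windows, and GTTAAT was in 0 of the 14 and in 7.10% of all. CCAAT was present for 8 of the 10 genes and for 41.1% of all genes. These matches describe letters in the windows and show no binding.

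The libraries held 11168552 to 17883466 counts, and 3 counts, taken as the least that can be told from 0, corresponded to 0.168 to 0.269 CPM (counts scaled to the library size) for counting error alone. Setd2 counts were 1179, 799 and 132 under the VHL-KO label and 1499, 1019 and 1429 under VHL-KO;SETD2-KO, thus not lower there. Counts per gene cannot show whether exons were deleted. The paper reports reduced SETD2 and H3K36me3 in the double-knockout mice from RT-qPCR, western blots and staining. Libraries and groups are named here by their labels only. Vhl had 139 to 317 counts in the 6 libraries. A pair of libraries stood apart. The library labelled VHL-KO replicate 4 had Spearman correlations across genes of 0.717 to 0.765 with the other 5, which reached 0.937 to 0.986 among themselves, and 11.3% of its counts were on mitochondrially encoded genes against 25.9% to 36.4% elsewhere. VHL-KO;SETD2-KO replicate 3 held 11704 counts of Xist, the RNA of the inactive X chromosome, against 0 to 4 in the other 5. It held 1 count of Y-linked genes. VHL-KO replicate 4 held 260 counts of these Y-linked genes, and the remaining libraries held 2071 to 3283. The sources used here give no sex for any library. Results below are therefore given with and without these libraries.

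The study's methods used DESeq2 with a p under 0.05 and a change of at least 1.5-fold, and do not say whether p was adjusted. Here a gene was called at an unadjusted p under 0.05 and a change of at least 1.5-fold. With all 6 libraries, edgeR called Shmt2 and Dao lower in VHL-KO;SETD2-KO and none of the 10 genes higher. That is 2 of 10 called lower, beside 4.68% of all tested genes, and 0 of 10 called higher by edgeR, DESeq2 or limma-voom, beside 2.65%, 2.86% and 2.90%. With p-values adjusted over all tested genes by the Benjamini-Hochberg method, edgeR's quasi-likelihood test called none of the 10, the lowest adjusted p being 0.625, and it called 0.00684% of all tested genes. DESeq2 gave an adjusted p only for Shmt2 and Dao among the 10, so the others could not be called by it after adjustment. It called Shmt2 lower, beside 0.383% of all tested genes, a share that counts genes without an adjusted p as not called. The fitted mean was lower for 8 of the 10 genes, Shmt1 among them at -0.0013, and for 7237 of all 14611 tested genes. The median log2 fold change of the 10 was -0.41, beside 0.01 over all tested genes. It was -0.08 without VHL-KO replicate 4, beside 0.04, and -0.72 without VHL-KO;SETD2-KO replicate 3, beside -0.01. The values of Gcsh and Shmt2 did not overlap between the labels and were the lower under VHL-KO;SETD2-KO, which is 2 of 10 beside 11.0% of all tested genes. None of the 10 was higher without overlap, beside 9.62%. All levels below are CPM scaled by TMM factors, and every fold change is VHL-KO;SETD2-KO over VHL-KO. Adjusted p-values are from edgeR unless DESeq2 is named.

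**Figure D1:**
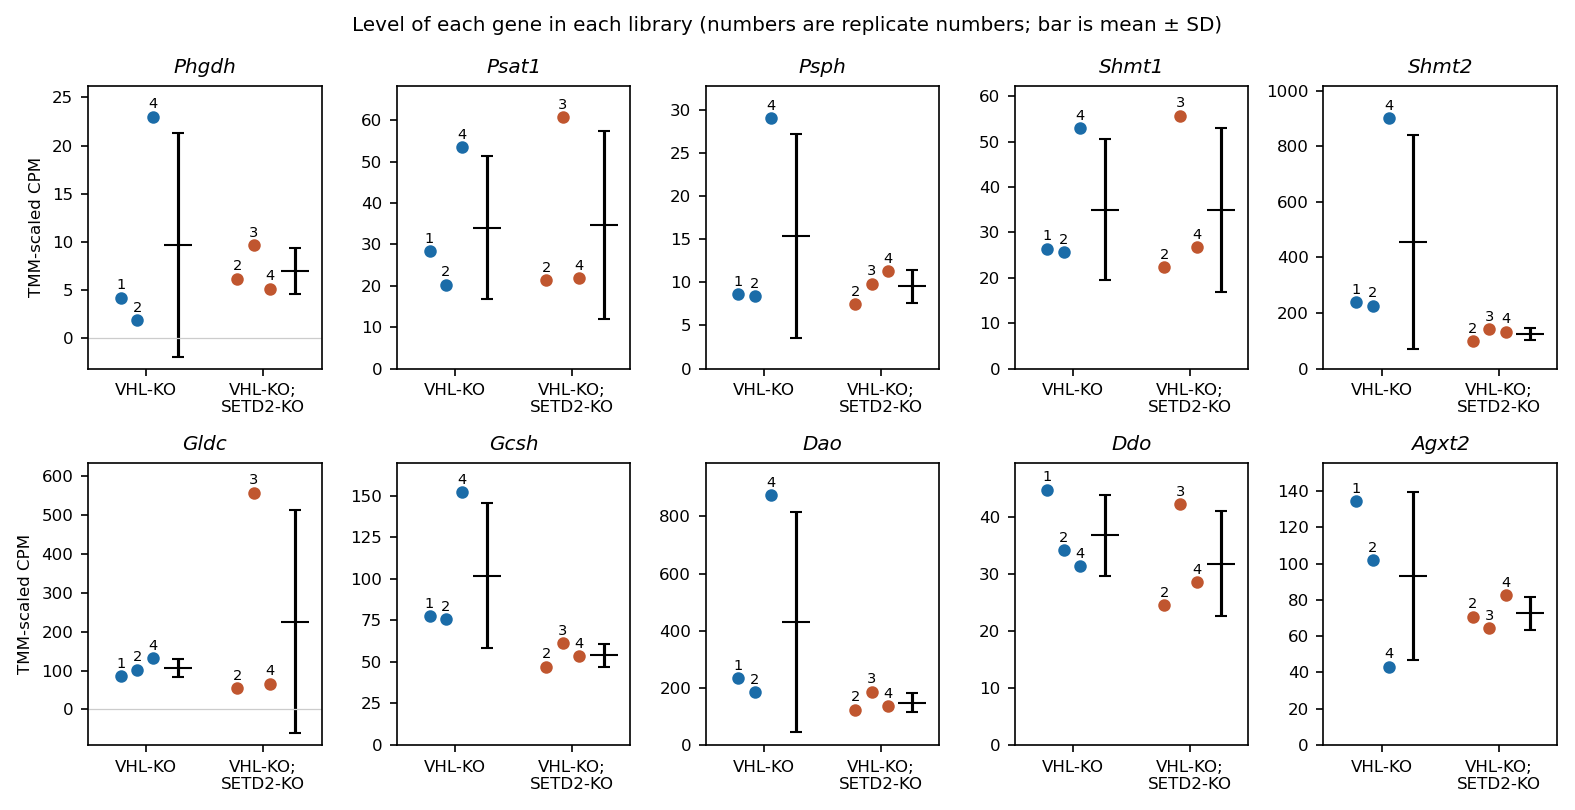
TMM-scaled CPM (y axis, linear) of each of the 10 enzyme genes in the 3 libraries of each label (x axis); points are libraries with their replicate numbers, and the bar is the mean ± SD. VHL-KO replicate 4 is far above the rest for Shmt2 (900) and Dao (874), and VHL-KO;SETD2-KO replicate 3 for Gldc (557).

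The 3 genes of serine synthesis showed no difference between the labels beyond the spread of their libraries. Phgdh (chr3:98313170-98339990, minus strand), which encodes the first and committed enzyme, was at 4.18, 1.85 and 23.0 CPM under the VHL-KO label. Under VHL-KO;SETD2-KO it was at 6.16, 9.69 and 5.14 CPM. VHL-KO replicates 1 and 2 were thus the lowest of the 6 libraries and replicate 4 the highest, and the groups overlapped. The log2 fold change was -0.46 ± 0.84 (SE, adjusted p = 0.846). Without VHL-KO replicate 4 it was 1.19 ± 0.46 (SE, adjusted p = 0.231), so the direction turned on that library. Phgdh was then the only 1 of the 10 genes called higher at an unadjusted p under 0.05, beside 8.29% of all tested genes under the same omission. Its counts were small, 20 in VHL-KO replicate 2 and 246 in replicate 4.

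Psat1 (chr19:15904678-15947337, minus strand), the aminotransferase of the second step, was at 28.4, 20.3 and 53.6 CPM under VHL-KO. It was at 21.4, 60.8 and 21.9 CPM under VHL-KO;SETD2-KO. Each label thus had 1 high library, VHL-KO replicate 4 and VHL-KO;SETD2-KO replicate 3, and the log2 fold change was 0.03 ± 0.58 (SE, adjusted p = 0.991), with a 95% interval from -1.30 to 1.35. Psph (chr5:129765558-129787449, minus strand), the phosphatase that releases serine, was at 8.67, 8.42 and 29.1 CPM under VHL-KO and at 7.44, 9.86 and 11.3 CPM under VHL-KO;SETD2-KO. All libraries but VHL-KO replicate 4 lay between 7.44 and 11.3 CPM. Its log2 fold change was -0.69 ± 0.57 (SE, adjusted p = 0.699) and became 0.15 ± 0.24 (SE, adjusted p = 0.754) without that library. Exons of Psph overlap those of Cct6a on the opposite strand.

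Of the serine hydroxymethyltransferases, the mitochondrial Shmt2 was called lower and the cytosolic Shmt1 was not. Shmt2 (chr10:127517123-127522444, minus strand) was at 239, 226 and 900 CPM under VHL-KO. Under VHL-KO;SETD2-KO it was at 99.5, 141 and 132 CPM. Every library labelled VHL-KO was above every library labelled VHL-KO;SETD2-KO. The log2 fold change was -1.87 ± 0.63 (SE, adjusted p = 0.625) by edgeR and -1.92 ± 0.62 (SE, adjusted p = 0.0419) by DESeq2. VHL-KO replicate 4 alone was 3.87 times the mean of the other VHL-KO libraries, and without it the log2 fold change was -0.91 ± 0.19 (SE, adjusted p = 0.103). The call at an unadjusted p under 0.05 was lost when VHL-KO;SETD2-KO replicate 2 or replicate 4 was left out, at log2 fold changes of -1.71 and -1.89. Exons of Shmt2 and of Ndufa4l2, which lies on the opposite strand and was looked at after its values were seen, overlap within 32 bases at their 3′ ends. Ndufa4l2 had 24 to 318 counts a library, against 1873 to 9619 for Shmt2.

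Shmt1 (chr11:60788104-60811718, minus strand) was at 26.4, 25.6 and 53.0 CPM under VHL-KO and at 22.4, 55.8 and 26.8 CPM under VHL-KO;SETD2-KO. As for Psat1, each label had 1 high library, and the group means were 35.0 ± 15.6 and 35.0 ± 18.1 CPM (SD, n = 3 each). Its log2 fold change was -0.0013 ± 0.51 (SE, adjusted p = 0.999), with a 95% interval from -1.17 to 1.17. Per kb of exon, the Shmt2 level was 11.3, 11.0 and 21.2 times the Shmt1 level in the VHL-KO libraries. It was 5.54, 3.16 and 6.16 times in the VHL-KO;SETD2-KO libraries. These ratios did not overlap, whether or not VHL-KO replicate 4 was counted, and differed by -1.54 in mean log2 (exact permutation test, two-sided p = 0.1, adjusted over 5 ratios p = 0.167). With 3 libraries a label 0.1 is the smallest p that this test can give. A part of Shmt1 overlaps exons of Smcr8 on the opposite strand, and whether counting used strand is not given in the sources used here.

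Gldc and Gcsh, partners in glycine cleavage, differed in which library was high. Gldc (chr19:30098447-30175429, minus strand), the glycine decarboxylase, was at 85.2, 102 and 132 CPM under VHL-KO. It was at 54.5, 557 and 66.6 CPM under VHL-KO;SETD2-KO, from 1025, 9888 and 1062 counts. Replicate 3 was 9.20 times the mean of replicates 2 and 4, while those replicates were below every VHL-KO library. Only 0.0958% of tested genes had a larger ratio between the same libraries. Across all libraries the log2 fold change was 1.09 ± 0.87 (SE, adjusted p = 0.693), and it was -0.80 ± 0.48 (SE, adjusted p = 0.753) without replicate 3, so its direction turned on that library. DESeq2 gave no p-value for Gldc. In replicate 3, the library with Xist, markers of the proximal straight tubule did not share a direction: 5 of 8 were above both replicates 2 and 4, such as Slc7a12 (19.8 CPM against 1.12 and 1.76), and 3 of 8 were below both, such as Slc7a13 (2.42 CPM against 290 and 301). Their sum was 332 CPM in replicate 3 against 838 and 1048 CPM. The part of sex or of tubule segment in the Gldc value was not tested.

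Gcsh (chr8:116981810-116993537, minus strand) was at 77.7, 75.7 and 152 CPM under VHL-KO. It was at 47.2, 61.2 and 53.4 CPM under VHL-KO;SETD2-KO. All VHL-KO libraries were above all VHL-KO;SETD2-KO libraries, yet the log2 fold change of -0.92 ± 0.43 (SE) missed the unadjusted threshold (adjusted p = 0.625). It kept its direction without VHL-KO replicate 4, at -0.51 ± 0.15 (SE, adjusted p = 0.158), where its size is below 1.5-fold. The level of Gldc relative to Gcsh, per kb of exon, was 0.284, 0.349 and 0.225 under VHL-KO and 0.299, 2.36 and 0.324 under VHL-KO;SETD2-KO (exact permutation test, two-sided p = 0.4). Outside VHL-KO;SETD2-KO replicate 3 this ratio stayed between 0.225 and 0.349.

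Of the D-amino acid oxidases, Dao was called lower and Ddo was not. Dao (chr5:114003703-114025682, plus strand) was at 234, 184 and 874 CPM under VHL-KO. It was at 124, 187 and 135 CPM under VHL-KO;SETD2-KO. The labels overlapped, since VHL-KO;SETD2-KO replicate 3 (187 CPM) was above VHL-KO replicate 2 (184 CPM). The log2 fold change was -1.54 ± 0.66 (SE, adjusted p = 0.625 by edgeR and 0.0946 by DESeq2). VHL-KO replicate 4 was 4.18 times the mean of replicates 1 and 2, and without it the log2 fold change was -0.50 ± 0.23 (SE, adjusted p = 0.288) and Dao was not called. The call was also lost without any 1 of the VHL-KO;SETD2-KO libraries, at log2 fold changes of -1.39, -1.72 and -1.44 without replicates 2, 3 and 4.

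Ddo (chr10:40630011-40681847, plus strand) was at 44.9, 34.2 and 31.4 CPM under VHL-KO and at 24.6, 42.3 and 28.7 CPM under VHL-KO;SETD2-KO. It was the gene of the 10 with the narrowest spread of log2 levels among the 6 libraries, and VHL-KO replicate 4 was not high for it. Its log2 fold change was -0.21 ± 0.39 (SE, adjusted p = 0.851). Per kb of exon, Dao was at 15.8, 16.3 and 84.1 times the level of Ddo under VHL-KO and at 15.2, 13.4 and 14.2 times under VHL-KO;SETD2-KO (exact permutation test, two-sided p = 0.1, adjusted p = 0.167). The ratios did not overlap between the labels, with or without VHL-KO replicate 4, and apart from that library they lay between 13.4 and 16.3.

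Agxt2 (chr15:10358532-10410153, plus strand), the mitochondrial aminotransferase that also acts on asymmetric dimethylarginine, was at 134, 102 and 43.1 CPM under VHL-KO. It was at 70.7, 64.4 and 82.6 CPM under VHL-KO;SETD2-KO. It was the only 1 of the 10 genes whose lowest value was in VHL-KO replicate 4. With that library the log2 fold change was -0.36 ± 0.49 (SE, adjusted p = 0.803), and without it -0.71 ± 0.18 (SE, adjusted p = 0.137). Exons of Agxt2 and of the predicted gene Gm21973 on the same strand overlap in the GENCODE annotation, so reads there are of uncertain origin.

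Leaving out VHL-KO replicate 4 gave 2 of the 10 genes called lower, Shmt2 and Agxt2, beside 7.14% of all tested genes, and 1 called higher, Phgdh. Leaving out VHL-KO;SETD2-KO replicate 3 gave 1 called lower, Shmt2, beside 2.20% of all tested genes. With both left out, a fit of 2 against 2 libraries that was chosen after the values were seen, 5 of the 10 passed an adjusted p of 0.05 and 1.5-fold as lower, beside 7.89% of all tested genes, and 0 as higher, beside 8.90%. At an unadjusted p under 0.05 with 1.5-fold the same fit called 0 of the 10 higher too, beside 13.4%. The 5 were Shmt2 (log2 fold change -1.01, adjusted p = 0.00875), Dao (-0.69, adjusted p = 0.0216), Agxt2 (-0.63, adjusted p = 0.0401), Gldc (-0.63, adjusted p = 0.0309) and Gcsh (-0.61, adjusted p = 0.0158). In that fit Ddo was at -0.57 (adjusted p = 0.0549) and the serine synthesis genes and Shmt1 were between -0.18 and 0.87 with no call. The omitted libraries were picked after the values of these same genes, extreme in them, were seen. Leaving them out removes spread within the labels. The p-values of that fit, here and for the lists below, can thus be too small. They describe the remaining 4 libraries and are no evidence of a difference between the labels.

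**Figure D2:**
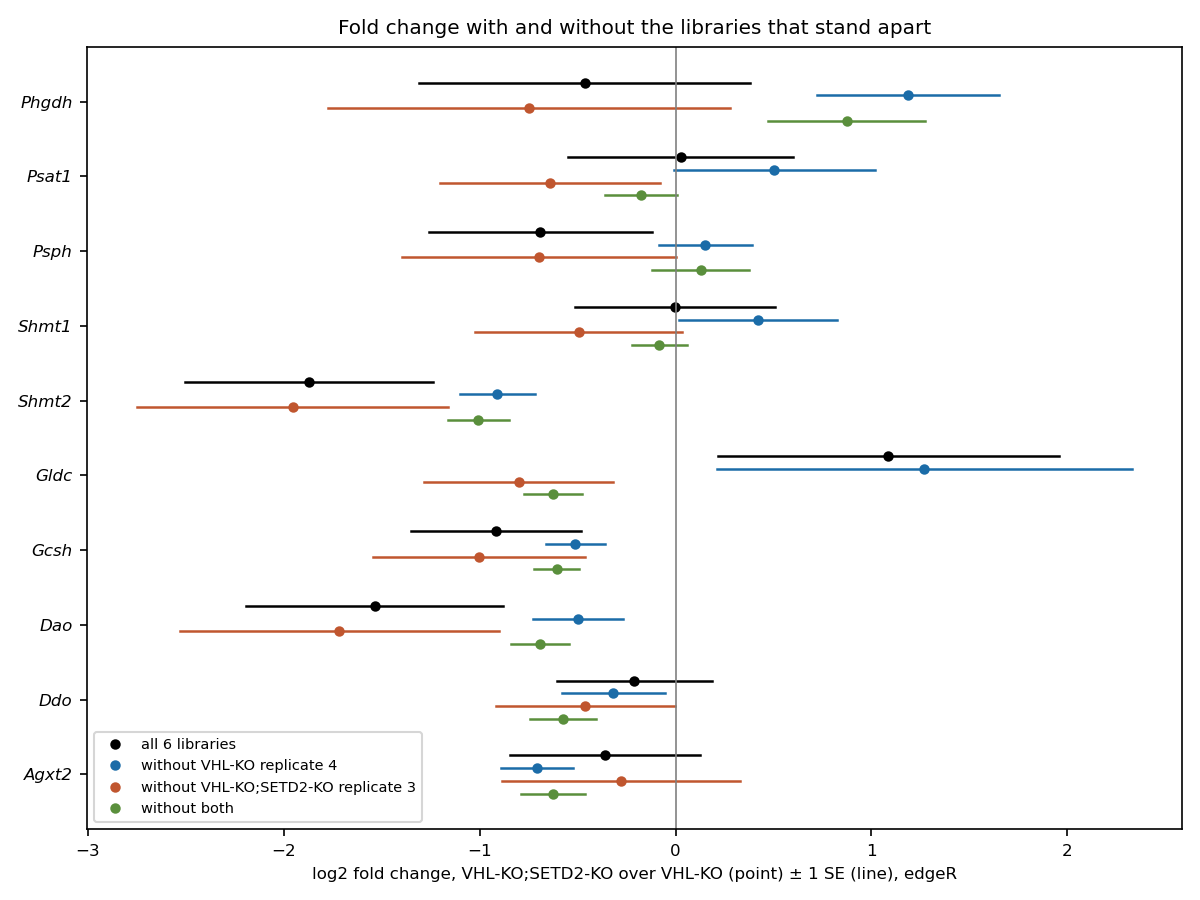
Log2 fold change, VHL-KO;SETD2-KO over VHL-KO (x axis; point ± 1 SE, edgeR), of each gene (y axis) with all 6 libraries, without each library that stood apart, and without both. Shmt2, Gcsh, Dao, Ddo and Agxt2 are below 0 in all 4 fits, while Gldc turns from 1.09 to -0.80 without VHL-KO;SETD2-KO replicate 3 and Phgdh from -0.46 to 1.19 without VHL-KO replicate 4.

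VHL-KO replicate 4 held the highest value of 5 of the 10 genes (Phgdh, Psph, Shmt2, Gcsh and Dao) and the lowest of 1, while over all tested genes it held the highest of 40.0% and the lowest of 41.7%. VHL-KO;SETD2-KO replicate 3 held the highest value of 3 genes, Psat1, Shmt1 and Gldc, beside 12.0% of all tested genes. VHL-KO;SETD2-KO replicate 2 held the lowest value of 7 genes, beside 13.1% of all. The likeness of patterns was measured as the root mean square difference of log2 CPM centred on each gene's mean over the 6 libraries, a description with no test. By it the closest pairs among the 10 were Shmt1 with Psat1 (0.18), Dao with Shmt2 (0.24) and Gcsh with Psph (0.35). Of 12401 genes compared, those nearest to Dao were Rab17 (0.05) and Slc6a13 (0.06), and those nearest to Shmt2 were Dnph1 (0.09) and Guca2b (0.10). The genes nearest to Gldc were Acot3 (0.28) and Rgs11 (0.32), farther off than for any other of the 10. Nearest to Ddo was Car5b (0.04), to Gcsh Trap1 (0.03), to Shmt1 Paqr5 (0.12), to Phgdh Gstm2 (0.12), to Psat1 TrnW (0.15), to Psph Dtymk (0.12) and to Agxt2 C1ql3 (0.07).

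**Figure D3:**
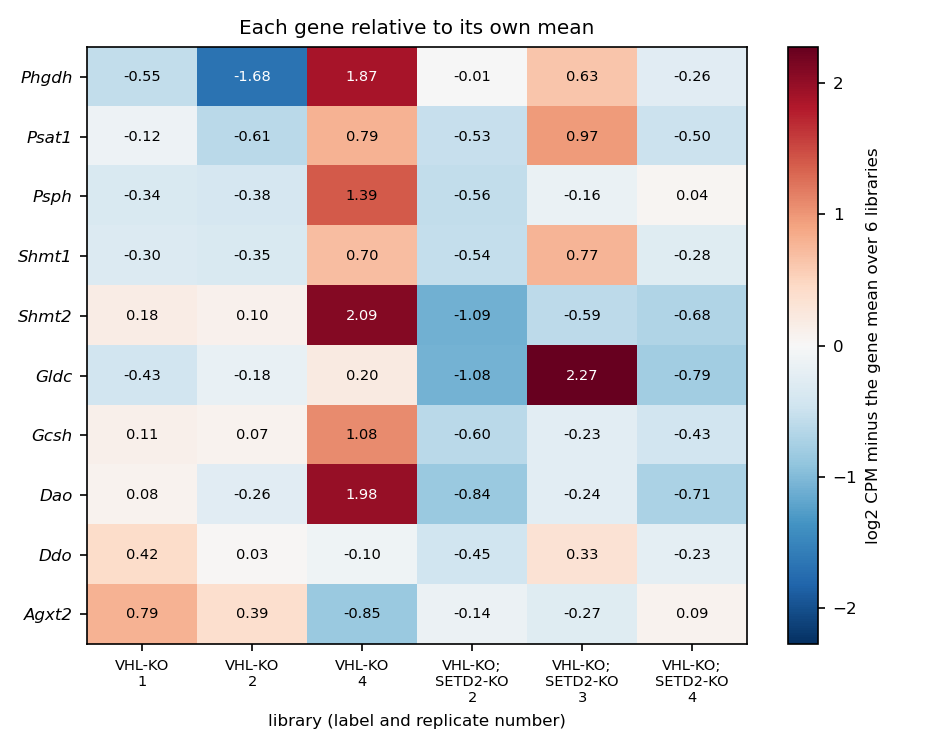
Log2 CPM of each gene minus its own mean over the 6 libraries (colour and printed value), genes in rows and libraries in columns. VHL-KO replicate 4 reaches 2.09 for Shmt2 and 1.98 for Dao, and VHL-KO;SETD2-KO replicate 3 reaches 2.27 for Gldc.

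Per kb of exon, Shmt2 and Dao had the highest levels of the 10 genes under both labels. Under VHL-KO the means were 146 ± 124 CPM per kb for Shmt2 and 146 ± 130 for Dao (SD, n = 3), and the ranges overlapped. Under VHL-KO;SETD2-KO they were 50.3 ± 11.4 CPM per kb for Dao and 39.9 ± 7.01 for Shmt2. Gcsh followed under VHL-KO at 64.5 ± 27.6 CPM per kb, Agxt2 at 29.4 ± 14.6 and Gldc at 17.5 ± 3.92. Under VHL-KO;SETD2-KO the single high library put the mean of Gldc, 37.1 ± 47.1 CPM per kb, above those of Gcsh (34.2 ± 4.42) and Agxt2 (22.9 ± 2.92). Shmt1, Psat1, Ddo, Phgdh and Psph came next in this order under both labels, from 9.02 down to 3.56 CPM per kb under VHL-KO and from 9.01 down to 2.20 under VHL-KO;SETD2-KO. Neighbours in the order whose ranges did not overlap were Gcsh and Agxt2, and Gldc and Shmt1, under VHL-KO. Under VHL-KO;SETD2-KO they were Gcsh and Agxt2, Agxt2 and Shmt1, and Psat1 and Ddo.

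The genes around these enzymes were taken from 6 lists with 117 genes in all, of which 105 could be tested; 22 were called lower and 2 higher at an unadjusted p under 0.05 and 1.5-fold, and none after adjustment, the adjusted p by edgeR being 0.625 for each called gene. These counts, and those of each list below, compare with 4.68% called lower and 2.65% called higher of all tested genes. Their median log2 fold change was -0.38. It was -0.29 without VHL-KO replicate 4 and -0.53 without VHL-KO;SETD2-KO replicate 3. By list, the medians without VHL-KO replicate 4 were -0.42 for glycine cleavage and -0.15 for serine use. They were -0.19 for folate enzymes, -0.51 for transporters, -0.44 for D-amino acid partners and 0.05 for ATF4-linked genes. Without VHL-KO replicate 4 the calls were 29 lower and 7 higher of 106 tested, beside 7.14% and 8.29% of all tested genes. Without VHL-KO;SETD2-KO replicate 3 they were 10 lower and 1 higher of 105, beside 2.20% and 2.37%. Genes named in the next paragraphs for passing the threshold, beyond those listed by role in the methods, were named after their values were seen. Agxt and Sds, the liver-type enzymes that act on glyoxylate and serine, were listed at 0 in every library.

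In the list of glycine cleavage and interconversion, 6 of 16 tested genes were called lower and 0 higher, with a median log2 fold change of -0.59. The count was again 6 of 16 without VHL-KO replicate 4 and was 2 without VHL-KO;SETD2-KO replicate 3. Amt, the aminomethyltransferase of the cleavage system, was at 65.3, 59.3 and 131 CPM under VHL-KO and at 32.9, 44.3 and 37.3 CPM under VHL-KO;SETD2-KO. It thus followed Gcsh, with no overlap between the labels and a log2 fold change of -1.16 ± 0.45 (SE), or -0.71 ± 0.16 (SE) without VHL-KO replicate 4. Pipox, a peroxisomal oxidase that forms glycine from sarcosine, was at 333, 307 and 335 CPM under VHL-KO and at 155, 166 and 180 CPM under VHL-KO;SETD2-KO. VHL-KO replicate 4 was not high for Pipox, and its log2 fold change was -0.96 ± 0.38 (SE) with that library and -0.94 ± 0.15 (SE, adjusted p = 0.0775) without it. Gnmt, which methylates glycine, had a log2 fold change of -2.12 with VHL-KO replicate 4 and -0.86 without it. The remaining calls were Sardh, Gamt and Grhpr. Amt and Pipox were not called without VHL-KO;SETD2-KO replicate 3. Dld, the dehydrogenase that the cleavage system shares with other complexes, was at 39.0 to 313 CPM under VHL-KO and at 196 to 245 CPM under VHL-KO;SETD2-KO (adjusted p = 0.982), and its log2 fold change turned from 0.05 to -0.44 without VHL-KO replicate 4. Gatm, which uses glycine in creatine synthesis, had a log2 fold change of 0.38 ± 0.65 (SE, adjusted p = 0.836), or -0.08 without that library.

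Of 12 tested genes of serine breakdown and use, 2 were called lower and 0 higher, with a median of -0.35. The count was 4 without VHL-KO replicate 4 and 1 without VHL-KO;SETD2-KO replicate 3. Cbs, which joins serine to homocysteine, was at 135, 108 and 484 CPM under VHL-KO and at 60.3, 39.3 and 78.5 CPM under VHL-KO;SETD2-KO (log2 fold change -2.03 ± 0.66, SE). Its labels did not overlap, its log2 fold change was -1.04 ± 0.29 (SE) without VHL-KO replicate 4, and it was not called without VHL-KO;SETD2-KO replicate 3. Glyctk, a glycerate kinase, was at 139, 135 and 334 CPM under VHL-KO and at 35.8, 47.0 and 50.1 CPM under VHL-KO;SETD2-KO. It had the lowest p of the 6 lists, at a log2 fold change of -2.20 ± 0.51 (SE), or -1.64 ± 0.18 (SE) without VHL-KO replicate 4. Srr, the racemase that makes D-serine, had a log2 fold change of -0.38 ± 0.47 (SE, adjusted p = 0.785), and Sdsl, a serine dehydratase-like enzyme, of -1.37 ± 0.73 (SE), neither of them called. Without VHL-KO replicate 4, Srr was called lower at -0.72 ± 0.15 (SE, adjusted p = 0.0982) and Sdsl was at -0.09 ± 0.33 (SE).

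Among 21 tested genes of folate one-carbon metabolism, 5 were called lower and 2 higher, with a median of -0.34. The counts were 5 and 2 of 22 without VHL-KO replicate 4, and 2 and 1 of 21 without VHL-KO;SETD2-KO replicate 3. Those lower were Aldh1l1, the cytosolic formyltetrahydrofolate dehydrogenase (log2 fold change -1.65, or -0.69 without VHL-KO replicate 4), Ftcd, which feeds histidine carbon to folate (-1.88, or -1.58), and the folate uptake genes Folr1, Slc19a1 and Slc46a1. Aldh1l2, the mitochondrial counterpart of Aldh1l1, was at 0.424, 0.833 and 0.187 CPM under VHL-KO and at 2.50, 3.38 and 2.57 CPM under VHL-KO;SETD2-KO. The labels did not overlap, and the log2 fold change was 2.53 ± 0.63 (SE), from 7, 9 and 2 counts under VHL-KO, so that replicate 4 was below the limit of 3 counts. Without that library the log2 fold change was 2.19 ± 0.47 (SE, adjusted p = 0.105). The other gene higher was Ggh, a lysosomal folate hydrolase. Mthfd1 (log2 fold change -0.77, or -0.31 without VHL-KO replicate 4), Mthfd2 (-0.05) and Mthfd1l (-0.04), enzymes that convert folate-bound carbon units, were not called. Mthfd2 was at 1.94 to 3.52 CPM in the 6 libraries.

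Of 17 tested glycine and serine transporters, 6 were called lower and 0 higher, with a median of -0.85. The counts were 7 and 2 without VHL-KO replicate 4, and 4 and 0 without VHL-KO;SETD2-KO replicate 3. Slc6a9, a glycine transporter, was at 21.9, 19.5 and 46.6 CPM under VHL-KO and at 8.77, 6.42 and 10.8 CPM under VHL-KO;SETD2-KO (log2 fold change -1.76 ± 0.48, SE, or -1.26 ± 0.25 without VHL-KO replicate 4). Slc6a18, a brush border carrier of glycine, had a log2 fold change of -1.14 ± 0.45 (SE), and Slc6a20b, Slc36a1, Slc1a4 and Slc38a3 were also called. Slc6a19, the main neutral amino acid carrier of the brush border, had a log2 fold change of -0.85 ± 0.47 (SE) and Sfxn1, a mitochondrial serine carrier, of -0.38 ± 0.45 (SE), and neither was called. Without VHL-KO replicate 4, Sfxn1 was called lower at -0.65 ± 0.23 (SE, adjusted p = 0.202). Among 15 tested D-amino acid and peroxisome partners, 3 were called lower and 0 higher (median -0.52), against 6 lower without VHL-KO replicate 4 and 1 without VHL-KO;SETD2-KO replicate 3. They were Aspdh, Prdx5 and Ddah1, which like Agxt2 acts on asymmetric dimethylarginine. Ddah1 was at 311, 270 and 271 CPM under VHL-KO and at 143, 151 and 161 CPM under VHL-KO;SETD2-KO (log2 fold change -0.91 ± 0.38, SE), and was not called without VHL-KO;SETD2-KO replicate 3. Cat, the catalase that removes the peroxide made by Dao and Ddo, had a log2 fold change of -0.39 ± 0.53 (SE, adjusted p = 0.807). It was called lower without VHL-KO replicate 4, at -0.74 ± 0.28 (SE, adjusted p = 0.230).

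Of 25 tested genes linked to ATF4, the transcription factor known to raise Phgdh, Psat1 and Psph when amino acids are short, edgeR called 0 in either direction at an unadjusted p under 0.05 with 1.5-fold, with a median of -0.18. Without VHL-KO replicate 4 it called 2 lower and 3 higher, with a median of 0.05, beside 7.14% and 8.29%, and without both libraries that stood apart 3 lower and 3 higher, with a median of 0.14, beside 10.4% and 13.4% of all tested genes. Atf4 was at 128, 183 and 90.7 CPM under VHL-KO and at 206, 93.5 and 197 CPM under VHL-KO;SETD2-KO (adjusted p = 0.826). Its lowest values were in VHL-KO replicate 4 and VHL-KO;SETD2-KO replicate 3, where Psat1 was highest. These are RNA levels of Atf4, and the part of ATF4 activity in the Psat1 level was not tested. Asns, an ATF4 target, was at 2.06, 1.85 and 6.08 CPM under VHL-KO and at 4.36, 4.51 and 4.27 CPM under VHL-KO;SETD2-KO (adjusted p = 0.812). Its log2 fold change was 0.40 ± 0.57 (SE) with all libraries and 1.15 ± 0.29 (SE, adjusted p = 0.126), called higher, without VHL-KO replicate 4. As for Phgdh, its lowest values were in VHL-KO replicates 1 and 2 and its highest in replicate 4.

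**Figure D4:**
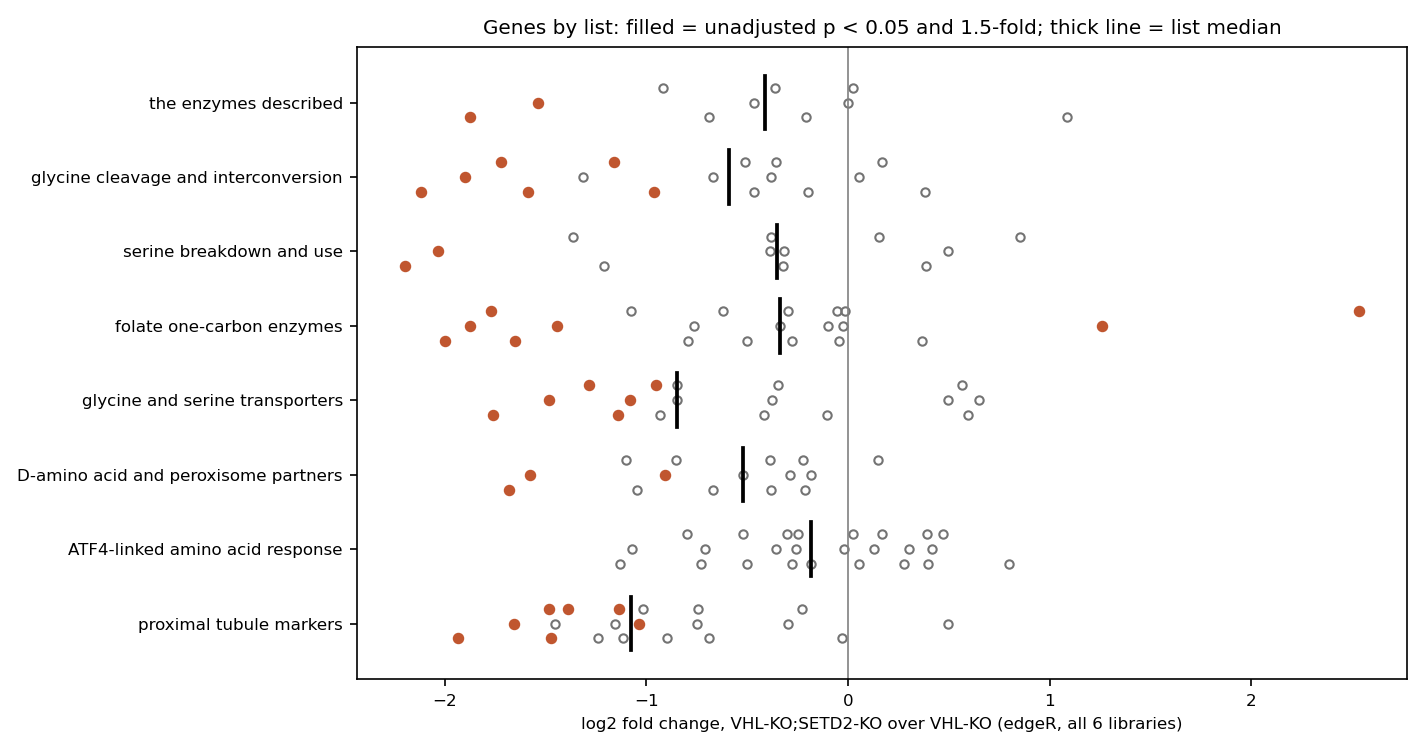
Log2 fold change, VHL-KO;SETD2-KO over VHL-KO (x axis, edgeR, all 6 libraries), of the tested genes of each list (y axis); filled points passed an unadjusted p of 0.05 and 1.5-fold, and the thick line is the list median. The medians run from -0.85 for the transporters to -0.18 for the ATF4-linked genes, and the proximal tubule markers have -1.08.

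The summed level of 20 proximal tubule markers was 28092 to 42715 CPM under VHL-KO and 12720 to 19087 CPM under VHL-KO;SETD2-KO, with no overlap. Of the 20, 7 were called lower and 0 higher (median log2 fold change -1.08), among them Slc34a1, the phosphate transporter (-1.66), and Hnf4a (-1.04). These calls compare with 4.68% of all tested genes. Without VHL-KO replicate 4, 12 of the 20 were called lower (7.14% of all tested genes), and without VHL-KO;SETD2-KO replicate 3 only 3 were (2.20%). Without the former, Slc34a1 was at -0.95. The 8 markers of the proximal straight tubule summed to 1430 to 3068 CPM under VHL-KO and to 332 to 1048 CPM under VHL-KO;SETD2-KO. The 6 podocyte markers, whose cells lie in the glomerulus, summed to 1465 to 2137 CPM under VHL-KO and to 2008 to 4929 CPM under VHL-KO;SETD2-KO. Of these, 3 of 6 were called higher, beside 2.65% of all tested genes. It was 4 of 6 without VHL-KO replicate 4, beside 8.29%, and 4 of 6 without VHL-KO;SETD2-KO replicate 3, beside 2.37%. Without both, 6 of 6 passed after adjustment, beside 8.90%. The 8 endothelial markers summed to 1806 to 2177 CPM under VHL-KO and to 1753 to 5084 CPM under VHL-KO;SETD2-KO, with 0 of 8 called at an unadjusted p under 0.05 with 1.5-fold. Without VHL-KO;SETD2-KO replicate 3, 4 of the 8 were called higher, beside 2.37% of all tested genes, and without both libraries that stood apart 7 of the 8 passed after adjustment, beside 8.90%. RNA of cells other than the labelled tubular epithelium was thus present in every library, and no marker of these 4 lists was at 0 in all of them. In bulk RNA, fewer cells of a type and less RNA of a gene per cell cannot be told apart, and the part of cell makeup in the values of Shmt2, Dao, Gcsh and their partners was not tested.

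Sums of other markers followed the libraries that stood apart. Collecting duct markers (12 genes) summed to 661 CPM in VHL-KO replicate 4 and 411 CPM in VHL-KO;SETD2-KO replicate 3, against 64.0 to 129 CPM in the other 4. Fibroblast markers summed to 539 CPM in VHL-KO replicate 4 against 82.2 to 207 CPM in the other 5. Immune markers summed to 767 CPM there, against 153 to 440 CPM elsewhere. Tubular injury markers did not share a direction between the labels. Of 9 tested, 2 (Havcr1 and Krt8) were called lower and 1 (Spp1) higher, beside 4.68% and 2.65% of all tested genes. All 10 injury markers summed to 1098 CPM in VHL-KO replicate 4 and 1703 CPM in VHL-KO;SETD2-KO replicate 3, against 369 to 488 CPM in the other 4. Thick limb markers summed to 3752 and 3580 CPM, and distal tubule markers to 1770 and 2259 CPM, in the same libraries, above the other 4 in both lists. These were also the libraries with the highest Psat1 and Shmt1, and the part of this mixture in those levels was not tested.

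**Figure D5:**
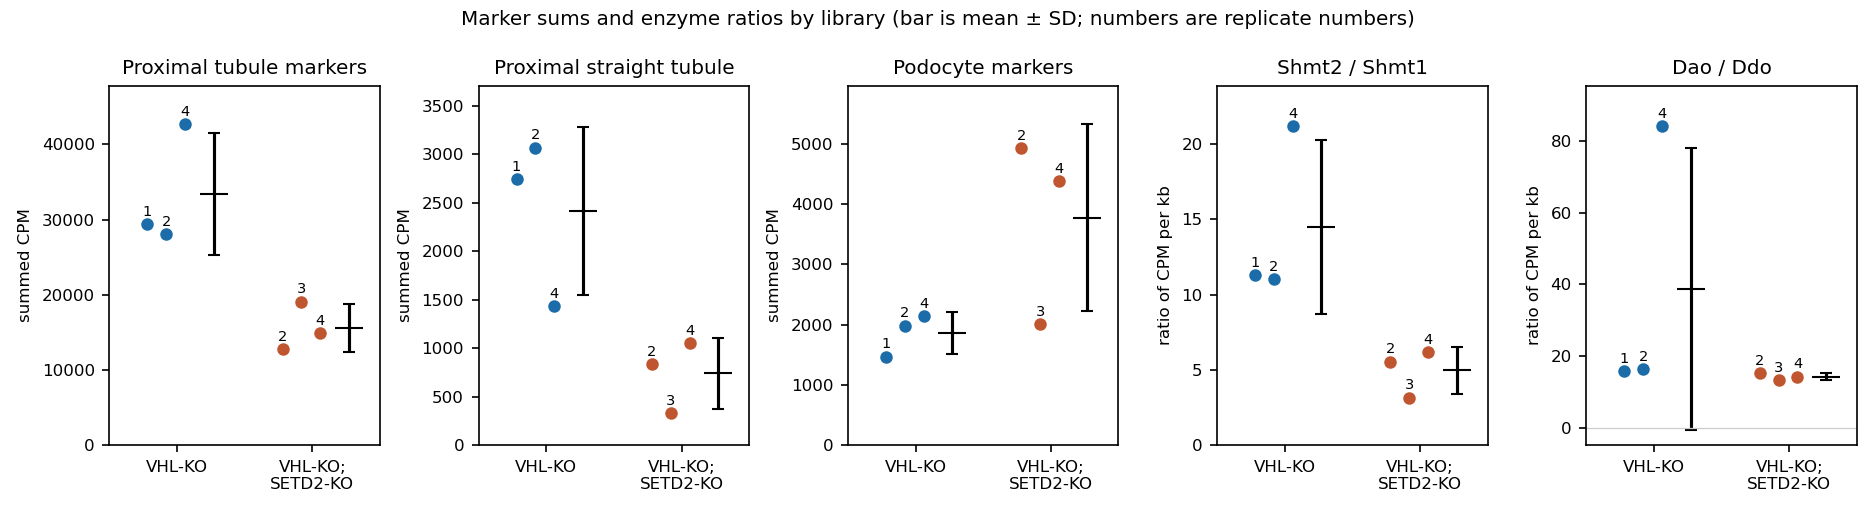
Summed CPM of the marker lists of the proximal tubule, proximal straight tubule and podocyte, and the ratios Shmt2 to Shmt1 and Dao to Ddo of CPM per kb (y axes, linear) in each library (points with replicate numbers; bar is the mean ± SD) by label (x axis). Proximal tubule sums, straight tubule sums and ratios of Shmt2 to Shmt1 do not overlap between the labels, and neither do those of Dao to Ddo, of which a single point (84.1, VHL-KO replicate 4) lies outside 13.4 to 16.3.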

How the data were processed

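RNA-seq counts were analysed for 6 libraries of mouse PTECs, 3 per label. The study's methods state TRIzol extraction, a directional kit and paired-end sequencing. The paper gives 3 mice per group for these libraries. Per the submitters' processing notes HISAT2 2.0.4 and GRCm38 were used; the counting program, its annotation and its use of strand are not given in the sources used here. The authors deposited raw counts per gene symbol, not normalized, in a single table with 0 unused sample columns. No libraries were duplicates: each of the 15 pairs differed by at least 13.2 chi-square per degree of freedom.

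From the counts, TMM factors (0.831 to 1.16), filterByExpr and edgeR 4.0.16 quasi-likelihood tests (R 4.3.3) were computed over the whole table with the label as the only factor. A call needed an unadjusted p under 0.05 and 1.5-fold. Adjusted p-values are Benjamini-Hochberg values over all tested genes, computed by edgeR except where the text names DESeq2 (1.42.0) or limma-voom (limma 3.58.1). A p that DESeq2 did not give was kept as missing. Ratios per kb used exon lengths of GENCODE on GRCm38. The fits were also run on simulated data with 200 changed genes among 14611. At a dispersion of 0.05, edgeR recovered 193 of them after adjustment, DESeq2 191 and limma-voom 195. At the dispersion of these data, 0.272, edgeR recovered 28 with 0 false calls. DESeq2 recovered 80 with 22 false calls, and limma-voom 10 with 0. A gene not called after adjustment is thus not shown to be unchanged. The depth, 11168552 to 17883466 counts, covers counting error only.

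The members and lists were chosen with earlier results of these data known. Named genes were all 10 members, genes set by role (Amt, Dld, Agxt, Pipox, Gnmt, Gatm, Sds, Sdsl, Srr, Cbs, Mthfd1, Mthfd2, Mthfd1l, Aldh1l1, Aldh1l2, Ftcd, Ddah1, Cat, Sfxn1, Slc6a9, Slc6a18, Slc6a19, Atf4, Asns), at most 3 genes of a marker list, Setd2 and Vhl, and the 2 genes of mean log2 CPM of at least 1 nearest in pattern to each member. Alternatives were RLE factors, DESeq2, limma-voom, no filter, at least 10 counts in every library, library sizes without the 13 mitochondrially encoded protein genes (recognised by their symbols, which carry no prefix in the table), a replicate block, an adjusted p, a 2-fold change, and leaving out each library. Leaving out VHL-KO replicate 4 and VHL-KO;SETD2-KO replicate 3 together was added after seeing the data. Numbers 2 and 4 occur under both labels. The correlation of same-numbered deviations from the group means was 0.16 for number 2 and -0.32 for number 4. The VHL-KO deviations are from a mean that includes replicate 4, which stood apart, so these correlations cannot decide whether the numbers pair mice. The main fit did not pair them.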

Additional observations from a re-analysis of the deposited data

How the results depend on the processing

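Shmt2, Dao, Gcsh and Ddo kept a negative log2 fold change in all 14 alternatives. Of 140 alternative values of the 10 genes, 104 kept their direction and their side of the threshold and 24 changed sign. Of those that kept their sign, 9 lost a call and 3 gained one. Among the sign changes, Phgdh without VHL-KO replicate 4 and Gldc without both libraries also gained a call. The genes called lower numbered 2, against 1 by limma-voom, 0 under an adjusted p, 0 with the replicate block, 0 to 2 when each library was left out, and 5 without both libraries that stood apart. Those called higher numbered 0, and 0 to 1 when each library was left out. All tested genes called numbered 1071, against 147 with the replicate block, 1 under an adjusted p, 385 to 2314 when each library was left out, and 3507 without both. Calls in the pathway lists numbered 24, against 0 with the block, 5 to 36 when each library was left out, and 46 without both. The block, for a pairing that these data could not decide, took the adjusted p of every member to at least 0.951. Replicate numbers 1 and 3 each occur under a single label, so with the block the label difference comes from replicates 2 and 4 alone. Little is then left to estimate the spread from.

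Sign changes were as follows, those with the replicate block resting on replicates 2 and 4 alone. Their cause was not tested. Gldc was at -0.95 with the replicate block, -0.63 without both libraries and -0.80 to 1.56 when each library was left out. Shmt1 was at 0.071 without a filter, 0.047 with at least 10 counts, 0.058 without mitochondrially encoded genes in library sizes, and -0.50 to 0.42 when each library was left out. Phgdh was at 0.27 by limma-voom, 0.87 without both and -0.93 to 1.19 when each was left out. Psat1 was at -0.016 with RLE factors and by DESeq2, -0.040 by limma-voom, -0.61 with the block, -0.18 without both and -0.64 to 0.50 when each was left out. Psph was at 0.13 without both and -0.96 to 0.15 when each was left out. Agxt2 was at 0.20 with the block and -0.71 to 0.0068 when each was left out. The median of all tested genes moved to 0.13 by limma-voom and 0.11 with the block.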
